A study of Homo sapiens with 6 samples.

Results

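The G1 cyclins, their kinases, their inhibitors and the retinoblastoma gene were followed in sphere cultures of CAL-27, a human cell line established from a squamous cell carcinoma of the tongue. The 10 genes were chosen by symbol from a table of 17280 genes: the D-type cyclins CCND1, CCND2 and CCND3, the kinases CDK4 and CDK6, the E-type cyclins CCNE1 and CCNE2, the inhibitors CDKN1B (p27) and CDKN2A (p16 and p14ARF), and RB1. All 10 passed the filter on low values, a mean of 1 or more TPM over the libraries, TPM being a gene's share of all transcripts after correction for its length, scaled to a fixed total. RNA was sequenced in 3 libraries titled LF3 and 3 titled CON. The titles and the series design give the LF3 libraries as sphere cells exposed for 24 h to LF3, an inhibitor of the contact between beta-catenin and its DNA-binding partner TCF4. Their treatment field instead names elesclomol with copper, and the CON libraries are given as a normal control, so a direction below always compares the libraries by their titles, LF3 over CON. No genotype, dose or vehicle is given, the groups share the line and the sphere culture, and no label says that replicates were separate cultures, and the spread behind each p-value may be technical.

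A cell leaves G1 when D-type cyclins, made in response to growth signals, activate CDK4 and CDK6, which phosphorylate RB and so loosen its hold on E2F transcription factors. E2F then drives the genes for E-type cyclins, which activate CDK2 and carry the cell into S phase. INK4 inhibitors such as p16 bind CDK4 and CDK6 directly, while CIP/KIP inhibitors such as p27 and p21 act on CDK2 complexes and also sit on cyclin D complexes. In squamous carcinoma of the mouth and throat, gain of CCND1 and loss of CDKN2A are among the commonest lesions.

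In the LF3 libraries 8 of the 10 genes were higher and 2 were lower in the values as deposited. The kinase gene CDK4 stood highest among them at 228 ± 3.99 TPM in LF3, against 58.4 ± 1.95 TPM in CON (SD, n = 3 each). CCND1, CCND3, CCNE1, CCNE2, RB1 and CDK6 were also higher, and CDKN1B was higher by a margin that did not outlast a change of scaling. CCND2 went against the other cyclins, with 1.86 ± 0.241 TPM in LF3 and 25.1 ± 1.42 TPM in CON, and CDKN2A was lower by a smaller amount. Since TPM is corrected for length, levels of different genes can be set side by side, but the depth behind each value is unknown.

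Calls were common in this comparison. Over all 12195 genes tested with limma on log2(TPM + 1), 85.5% had a Benjamini-Hochberg adjusted p under 0.05, with 53.2% higher and 32.3% lower in LF3, and in 86.2% the LF3 and CON libraries did not overlap. That all 10 genes were called, and that the groups did not overlap in any of them, is therefore close to what held for the table as a whole. Their median log2 fold change was 0.97, beside 0.24 over all genes tested. Median-ratio rescaling, in which a library is divided by the median of its ratios to the geometric means of the genes, brought the median of all genes to -0.0055 and that of the 10 genes to 0.71. Under that rescaling 7 were called higher and 2 lower, and under quantile normalization 7 higher and 3 lower, CDKN1B being the gene that moved in both. Of all 12195 genes tested, 5195 were called higher and 5205 lower under median-ratio rescaling. Under quantile normalization 5355 were called higher and 5054 lower.

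**Figure D1:**
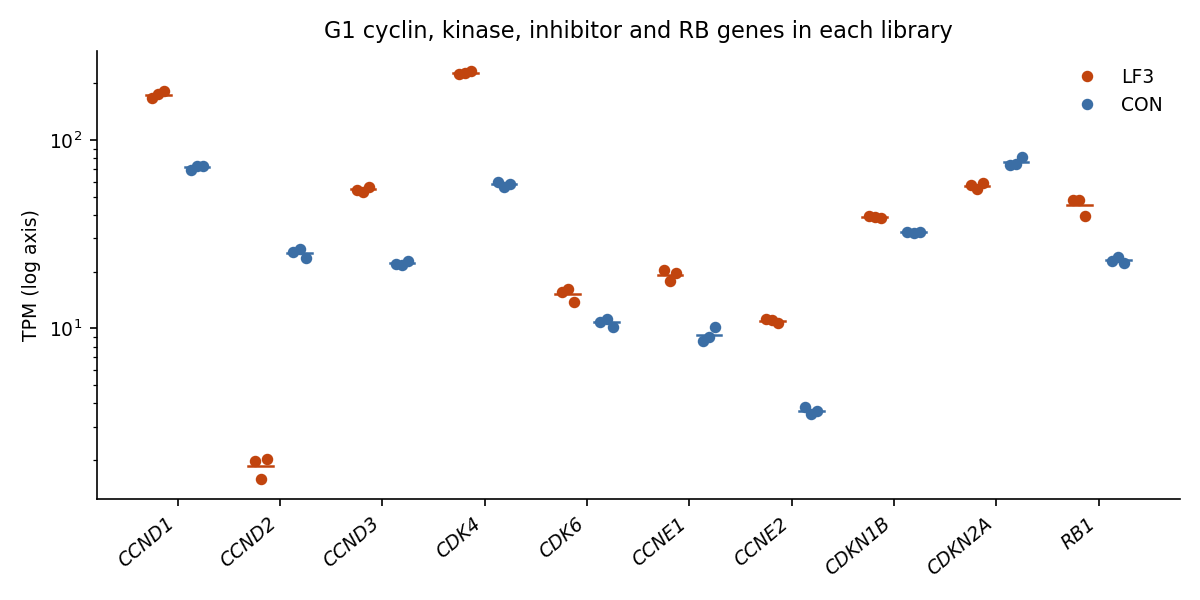
TPM of the 10 genes in each library on a log axis, with LF3 libraries (left, orange) and CON libraries (right, blue) as points and group means as bars. CCND2 lies between 1.58 and 2.02 TPM in LF3 and between 23.5 and 26.3 TPM in CON, while CDK4 and CCND1 are the highest genes in LF3.

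Markers of the squamous epithelium were present, and those of other cell types were mostly near 0. KRT5, KRT6A, KRT17, TP63, SFN, EPCAM and CDH1 passed the filter and KRT14 did not, and the 8 summed to 1692 to 1725 TPM in LF3 and 1187 to 1211 TPM in CON. Within that sum KRT5 was at 447 to 460.0 TPM in LF3 and 98.8 to 105 TPM in CON, while KRT17 was at 58.0 to 59.4 TPM in LF3 and 192 to 209 TPM in CON. The 6 fibroblast genes summed to 6.81 to 7.69 TPM in LF3 and 14.75 to 15.8 TPM in CON, with COL3A1 and DCN at 0 in every LF3 library. The leukocyte genes found in the table (5 of 6) summed to 47.3 to 51.7 TPM in LF3 and 329 to 341 TPM in CON, nearly all of it CD68, a lysosomal protein not limited to leukocytes, while PTPRC was at 0 in every LF3 library and at most 0.02 TPM in CON. The 4 endothelial genes summed to 6.24 to 7.26 TPM in LF3 and 0.41 to 0.57 TPM in CON, with CDH5 making up nearly all of the LF3 sum. The part of these differences in the results was not tested. In bulk RNA, fewer cells of a kind and less RNA per cell cannot be told apart.

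CCND1, CCND2 and CCND3 encode the cyclins D1, D2 and D3, the partners of CDK4 and CDK6. CCND1 had 167, 175 and 181 TPM in the LF3 libraries, against 69.5, 72.8 and 72.9 TPM in the CON libraries. Every LF3 library lay far above every CON library. Its log2 fold change was 1.27 ± 0.043 (limma SE, adjusted p = 3.94e-10), which lay above 86.5% of all genes tested.

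CCND3 had 54.5, 53.3 and 56.4 TPM in LF3, against 21.9, 21.7 and 22.7 TPM in CON, again without overlap. Its log2 fold change was also 1.27, with a standard error of 0.048 (limma adjusted p = 9.23e-10). The ratio of CCND3 to CCND1 within a library was accordingly alike in the groups, at 0.314 ± 0.0113 in LF3 and 0.308 ± 0.0090 in CON (SD, n = 3 each). The libraries overlapped in this ratio (exact two-sided permutation p = 0.6, Benjamini-Hochberg adjusted p = 0.6 over 9 ratios).

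CCND2 had 1.97, 1.58 and 2.02 TPM in LF3, against 25.6, 26.3 and 23.5 TPM in CON. Its log2 fold change of -3.20 ± 0.085 (limma adjusted p = 7.39e-11) lay among the lowest 0.5% of genes tested, and the ratio of means was 13.5-fold in favour of CON. Because 1 TPM is added before the logarithm, the log2 value understates the change of a gene this low. It stayed between -3.24 and -3.12 when any single library was left out and was -3.41 after median-ratio rescaling. In rank among all genes of a library, CCND2 stood at percentile 34.9 in LF3 and 74.1 in CON.

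The makeup of the D-cyclin RNA therefore differed between the groups. CCND2 was 0.804 ± 0.103% of the summed D-cyclin TPM in LF3 and 21.1 ± 1.18% in CON. CCND1 was 75.5 ± 0.716% in LF3 and 60.3 ± 0.878% in CON, and CCND3 was 23.7 ± 0.628% in LF3 and 18.6 ± 0.561% in CON. The ratio of CCND2 to CCND1, which dividing a library by any single factor leaves unchanged, was 0.0118, 0.0090 and 0.0112 in the LF3 libraries, against 0.368, 0.361 and 0.323 in the CON libraries, a 33.1-fold difference (exact two-sided permutation p = 0.1, the smallest that 3 against 3 libraries allow, and 0.113 adjusted over 9 ratios). The sum of the 3 genes was 231 ± 8.14 TPM in LF3 and 119 ± 1.91 TPM in CON, so it was higher in LF3 despite the lower CCND2.

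**Figure D2:**
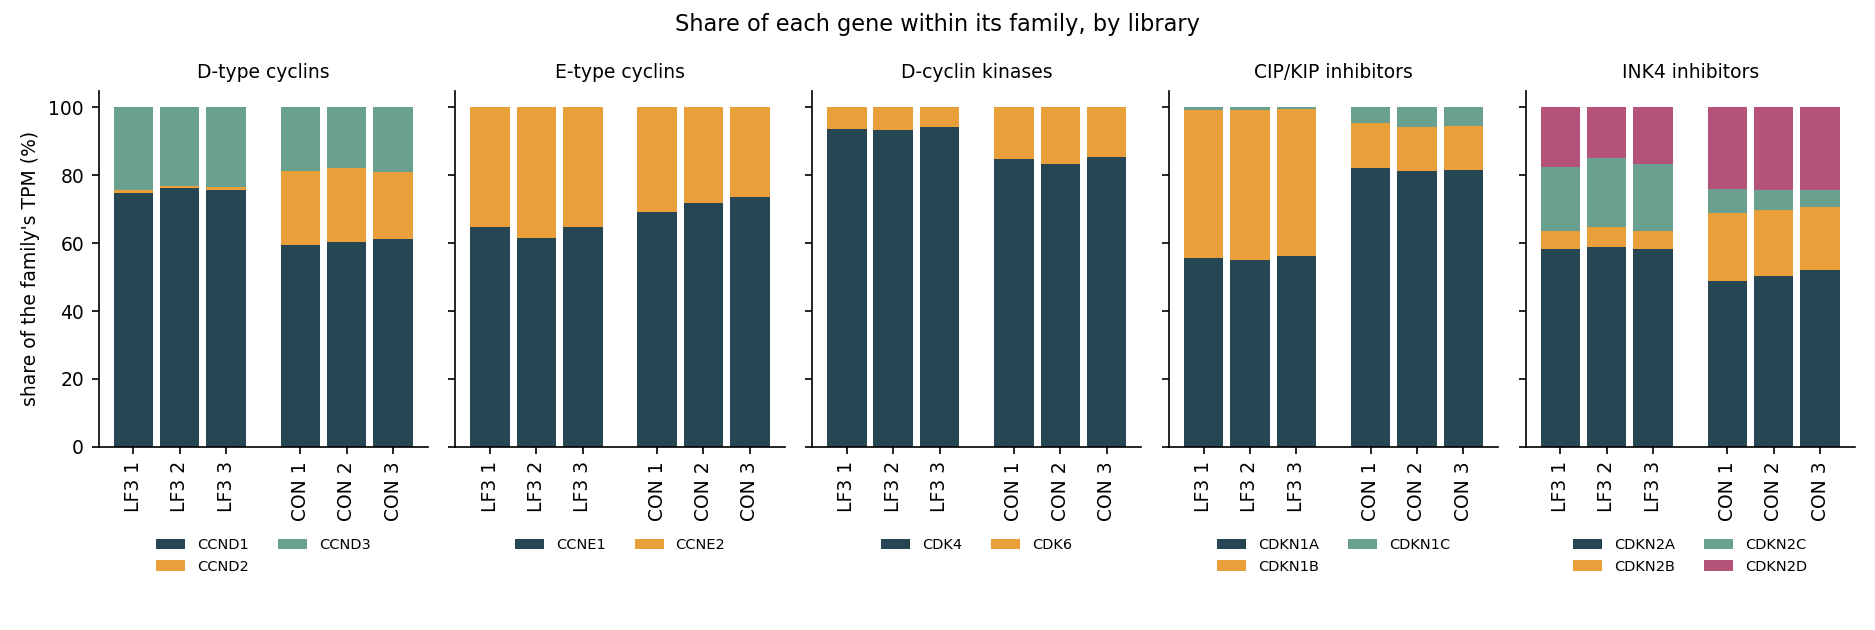
Share of each gene in its family's summed TPM, as stacked bars from 0 to 100% for the 3 LF3 libraries (left) and the 3 CON libraries (right). CCND2 makes up 0.804% of the D cyclins in LF3 and 21.1% in CON, CDK4 makes up 93.8% of the kinase pair in LF3 and 84.5% in CON, and CDKN1B takes 43.6% of the CIP/KIP RNA in LF3 and 13.0% in CON.

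CDK4 and CDK6 encode the alternative kinase partners of the D cyclins. CDK4 had 224, 228 and 232 TPM in LF3, against 60.1, 56.3 and 58.7 TPM in CON. The groups were far apart relative to the spread within them, and the log2 fold change of 1.95 ± 0.040 (limma adjusted p = 1.14e-11) lay above 96.2% of genes tested; it was 1.68 after median-ratio rescaling. CDK6 had 15.5, 16.2 and 13.9 TPM in LF3, against 10.8, 11.3 and 10.1 TPM in CON. The gap between the groups was narrow here, and the log2 fold change of 0.46 ± 0.075 (limma adjusted p = 1.45e-04) shrank to 0.21 after median-ratio rescaling (adjusted p = 0.0111) and to 0.16 under quantile normalization (adjusted p = 0.0375).

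The kinase pair thus shifted towards CDK4. The ratio of CDK6 to CDK4 was 0.0692, 0.0712 and 0.0597 in the LF3 libraries, against 0.180, 0.200 and 0.173 in the CON libraries, a 2.76-fold difference without overlap (exact two-sided permutation p = 0.1, adjusted p = 0.113). CDK4 shares part of its locus with TSPAN31, a tetraspanin gene, in the RefSeq table of GRCh38.p14. TSPAN31 averaged 13.0 ± 1.37 TPM in LF3 and 36.6 ± 1.31 TPM in CON and was called lower (log2 fold change -1.43 ± 0.074, limma adjusted p = 1.10e-08), so the overlapping pair moved in opposite directions. Whether reads were assigned by strand is not stated in the labels, and the reads of the overlapping stretch cannot be told apart.

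The stretch upstream of the CDK4 start is shown because CDK4 had the largest log2 rise of the 10 genes and its promoter is a textbook site of MYC binding. It holds the E-box CACGTG, the palindromic core that MYC and its relatives recognise, 3 times, starting 216, 196 and 101 bases before the start. The 250 bases before the start, from RefSeq (GRCh38.p14, chr12:57752311-57752560, minus strand), are given 5′ to 3′ with the E-boxes in capitals.
CDK4 upstream: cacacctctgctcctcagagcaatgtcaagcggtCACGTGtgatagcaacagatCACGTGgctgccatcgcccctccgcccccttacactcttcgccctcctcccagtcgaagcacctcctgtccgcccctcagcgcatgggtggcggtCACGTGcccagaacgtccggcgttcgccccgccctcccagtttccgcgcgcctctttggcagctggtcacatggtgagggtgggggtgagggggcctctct

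Among 35116 upstream stretches of this length in the same table, 6.34% held at least 1 E-box and 0.0797%, or 28 stretches, held at least 3. The MYC gene itself had 67.6, 65.0 and 60.4 TPM in LF3, against 26.6, 26.8 and 28.0 TPM in CON (log2 fold change 1.21 ± 0.054, limma adjusted p = 2.98e-09). A link between MYC and the CDK4 values was not tested. Upstream stretches were found for 7 of the 10 genes, some with more than 1 start, and none of the other 6 held an E-box in these letters. The E2F letters TTTCCCGC, TTTGGCGC or TTTCGCGC (on 2.32% of all stretches, both strands), the TCF letters CTTTGAT (2.26%) and the CRE letters TGACGTCA (1.65%) were in none of the 7. Letters this rare are absent from most stretches, so their absence says little about any of the 7 genes. Bases past the start were not searched. The RB1 stretch held 36.8% G and C, against 61.2 to 81.2% in the stretches of the other 6. Whether it is the promoter that RB1 uses in these cells was not tested, so the absence of a motif there says little about RB1. A match is a description of letters in this window and not a measured binding site, and no stretch was matched for CCND1, CCND2 or CCNE2.

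CCNE1 and CCNE2 encode the E-type cyclins, which activate CDK2 late in G1 and are themselves transcribed under E2F. CCNE1 had 20.5, 17.8 and 19.6 TPM in LF3, against 8.51, 8.98 and 10.2 TPM in CON. CCNE2 had 11.2, 11.1 and 10.6 TPM in LF3, against 3.81, 3.50 and 3.63 TPM in CON. Neither gene overlapped between the groups, and log2 fold changes were 0.99 ± 0.080 for CCNE1 (limma adjusted p = 4.90e-07) and 1.37 ± 0.073 for CCNE2 (adjusted p = 1.42e-08).

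CCNE2 was the lower of the pair in every library, and its share of the E-cyclin TPM was 36.3 ± 1.80% in LF3 and 28.4 ± 2.35% in CON. The ratio of CCNE2 to CCNE1 was 0.547, 0.623 and 0.542 in the LF3 libraries, against 0.448, 0.390 and 0.356 in the CON libraries, without overlap (exact two-sided permutation p = 0.1, adjusted p = 0.113). CCNE2 overlaps INTS8, a subunit gene of the Integrator complex, and NDUFAF6, an assembly factor gene of complex I, in the RefSeq table. INTS8 averaged 38.0 ± 5.90 TPM in LF3 and 26.8 ± 0.300 TPM in CON, and NDUFAF6 averaged 17.7 ± 1.16 TPM in LF3 and 3.08 ± 0.369 TPM in CON; both were called higher, so reads from these neighbours could enter the CCNE2 values, which was not tested. Summed, the D cyclins exceeded the E cyclins 7.64 ± 0.524 times in LF3 and 9.26 ± 0.565 times in CON (SD, n = 3 each; exact two-sided permutation p = 0.1, adjusted p = 0.113).

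CDKN1B encodes p27, which holds CDK2 complexes inactive and is removed largely by protein degradation. It had 39.6, 39.2 and 38.4 TPM in LF3, against 32.7, 32.0 and 32.5 TPM in CON. The spread within each group was under 1 TPM and the groups did not overlap, and the log2 fold change was 0.26 ± 0.045 (limma adjusted p = 2.52e-04), almost the 0.24 of the median gene. It was -0.0048 after median-ratio rescaling (adjusted p = 0.921) and -0.10 under quantile normalization (adjusted p = 0.0498), so no direction is given for it. Relative to CCND1 it was lower in every LF3 library, with a ratio of 0.237, 0.224 and 0.212 in LF3, against 0.470, 0.439 and 0.447 in CON (exact two-sided permutation p = 0.1, adjusted p = 0.113).

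CDKN2A gives rise to p16, which binds CDK4 and CDK6, and from a separate first exon to p14ARF, which acts on the p53 pathway. It had 57.6, 54.6 and 59.1 TPM in LF3, against 73.7, 74.7 and 81.2 TPM in CON. All LF3 values lay below all CON values, with a log2 fold change of -0.42 ± 0.051 (limma adjusted p = 1.66e-05) that was -0.69 after median-ratio rescaling and -0.76 under quantile normalization. In CON it was the highest of the 10 genes, and in LF3 it came after CDK4 and CCND1 and overlapped CCND3.

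A gene-level TPM pools the transcripts of both first exons, so the values do not tell p16 from p14ARF RNA. The 100 bases before each start are shown because separate starts lie behind 1 value. They come from RefSeq (GRCh38.p14, minus strand), at chr9:21995325-21995424 for the upstream start and at chr9:21974858-21974957 for the downstream start. No transcript name came with either start, so neither is assigned here to p14ARF or p16.
CDKN2A upstream start: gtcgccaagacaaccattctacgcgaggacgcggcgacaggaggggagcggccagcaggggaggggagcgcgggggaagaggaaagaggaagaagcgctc
CDKN2A downstream start: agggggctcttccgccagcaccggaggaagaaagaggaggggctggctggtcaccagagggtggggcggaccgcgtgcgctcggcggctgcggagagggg

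RB1 encodes the pocket protein that D-cyclin kinases phosphorylate. It had 48.1, 48.2 and 39.5 TPM in LF3, against 22.7, 24.0 and 22.1 TPM in CON. LF3 replicate 3 lay below the other LF3 libraries yet well above every CON library. The log2 fold change was 0.94 ± 0.077 (limma adjusted p = 4.99e-07), 0.68 after median-ratio rescaling, and 0.90 to 1.04 when a library was left out. LPAR6, a receptor gene inside an RB1 intron, stood at 3.51 ± 0.558 TPM in LF3 and 2.997 ± 0.503 TPM in CON and was not called (log2 fold change 0.18 ± 0.12, limma adjusted p = 0.198), at a level far under that of RB1.

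**Figure D3:**
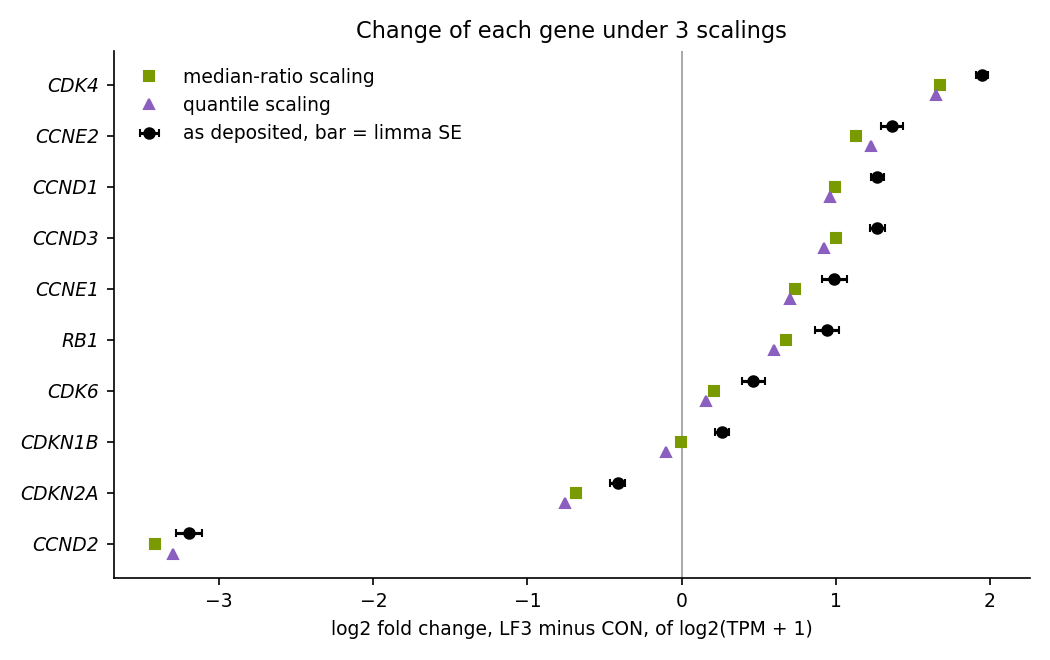
Log2 fold change of each gene, LF3 minus CON, in log2(TPM + 1), as deposited (black, bars are limma standard errors), after median-ratio rescaling (green) and after quantile normalization (purple). CDKN1B is the gene that crosses 0; CCND2 and CDKN2A are below 0 and the other 7 are above it under all 3 scalings.

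The order of levels was rearranged. From high to low, the LF3 libraries had CDK4, CCND1, CDKN2A, CCND3, RB1, CDKN1B, CCNE1, CDK6, CCNE2 and CCND2. CDKN2A and CCND3 overlapped there, as did RB1 and CDKN1B. The CON libraries had CDKN2A, CCND1, CDK4, CDKN1B, CCND2, RB1, CCND3, CDK6, CCNE1 and CCNE2. There CCND2 overlapped RB1, RB1 overlapped CCND3, and CDK6 overlapped CCNE1. CCND2 thus had rank 10 in LF3 and rank 5 in CON, while CDK4 had rank 1 in LF3 and rank 3 in CON.

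The other inhibitors of these kinases were mostly lower in LF3. Of the 6 CDK inhibitor genes outside the 10 genes, all were tested, 4 were called lower and 2 higher, with a median log2 fold change of -1.59 (beside 0.24 over all genes), and the counts were the same after rescaling. Over all genes tested, 32.3% were called lower and 53.2% higher as deposited. CDKN1A, which encodes p21, had 50.4, 48.8 and 50.1 TPM in LF3, against 201, 203 and 205 TPM in CON (log2 fold change -2.01 ± 0.037, limma adjusted p = 5.57e-12). CDKN1C, which encodes p57, had 0.81, 0.61 and 0.50 TPM in LF3, against 11.1, 14.6 and 13.6 TPM in CON, and CDKN2B, which encodes p15 beside CDKN2A, had 5.27, 5.46 and 5.61 TPM in LF3, against 30.7, 29.0 and 29.0 TPM in CON. In none of these did the groups overlap, which held for 86.2% of all genes tested. CDKN2D (p19) averaged 15.9 ± 1.89 TPM in LF3 and 36.8 ± 1.15 TPM in CON, while CDKN2C (p18) averaged 19.2 ± 0.760 TPM in LF3 and 9.08 ± 1.41 TPM in CON. CDKN3, a phosphatase of CDK2 that carries an inhibitor's symbol and is known to be highest in dividing cells, averaged 175 ± 6.36 TPM in LF3 and 44.2 ± 4.18 TPM in CON.

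Set against the RNA of CDK4 plus CDK6 or of CDK2, the inhibitor RNAs were scarcer in LF3. The sums below were chosen after the values had been seen. CDKN2A made up 58.5% of the INK4 sum in LF3 and 50.3% in CON. Its value pools p16 with p14ARF RNA, so that sum is not of CDK4 and CDK6 inhibitors alone. The INK4 genes CDKN2A, CDKN2B, CDKN2C and CDKN2D summed to 97.7 ± 4.52 TPM in LF3 and 152 ± 3.90 TPM in CON, and their ratio to CDK4 plus CDK6 was 0.411, 0.380 and 0.413 in the LF3 libraries, against 2.13, 2.20 and 2.27 in the CON libraries, a 5.49-fold difference. The CIP/KIP genes CDKN1A, CDKN1B and CDKN1C summed to 89.4 ± 1.13 TPM in LF3 and 248.7 ± 3.39 TPM in CON, and their ratio to CDK2 was 0.979, 0.964 and 0.911 in LF3, against 5.36, 5.15 and 5.08 in CON. The D cyclins stood at 0.949 ± 0.0218 of CDK4 plus CDK6 in LF3 and 1.72 ± 0.0705 in CON, with the kinase pair summing to 243 ± 3.20 TPM in LF3 and 69.1 ± 1.74 TPM in CON. The groups did not overlap in any of these 3 ratios (exact two-sided permutation p = 0.1, adjusted p = 0.113 each), and they are ratios of RNA, not of protein. Because the sums were chosen with the values known, these p-values add no support to the differences.

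**Figure D4:**
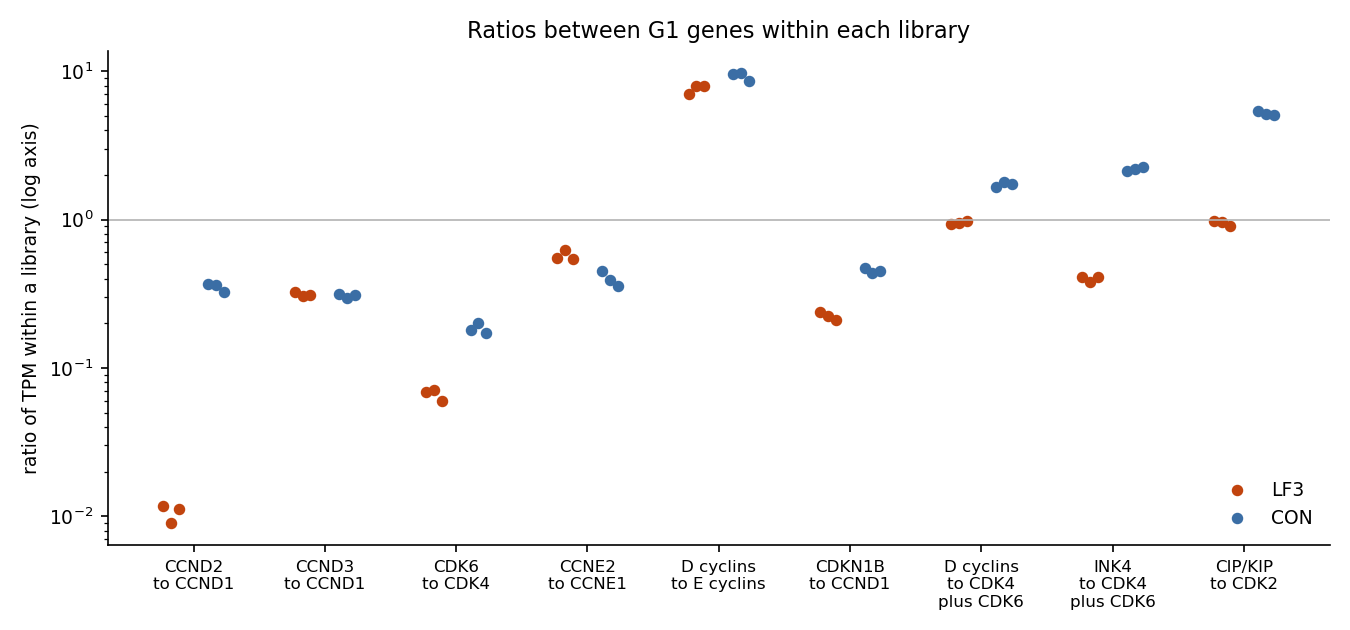
Ratios of TPM within each library on a log axis, with LF3 libraries (left, orange) and CON libraries (right, blue) and a line at 1. CCND3 to CCND1 is the ratio in which the groups overlap; CCND2 to CCND1 shows the widest gap, from 0.0090 to 0.0118 in LF3 and from 0.323 to 0.368 in CON.

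Genes of the RB and E2F network outside the 10 were mostly higher. Of 12 genes for the other pocket proteins, E2F factors and their DP partners, 11 were called higher and 1 lower, with a median log2 fold change of 1.28. Among all genes tested 53.2% were called higher and 32.3% lower, with a median of 0.24. After median-ratio rescaling 10 of the 12 were called higher and 1 lower, with E2F7, a repressor of E2F targets, at 0.12 (limma adjusted p = 0.0819). E2F1, an activator of S-phase genes, had 24.1, 23.4 and 23.8 TPM in LF3, against 5.24, 5.59 and 6.89 TPM in CON. TFDP1, the common DP partner, averaged 214 ± 0.806 TPM in LF3 and 52.0 ± 1.18 TPM in CON, and E2F4, a mainly repressive factor, averaged 106 ± 3.48 TPM in LF3 and 33.4 ± 0.382 TPM in CON. The pocket protein genes went apart. RBL1 (p107) averaged 19.9 ± 1.17 TPM in LF3 and 6.39 ± 0.445 TPM in CON, and RBL2 (p130), which is most abundant in resting cells, averaged 30.9 ± 2.75 TPM in LF3 and 55.8 ± 2.39 TPM in CON. All 10 of the S-phase genes under E2F control were called higher (9 after rescaling, without CDT1), with a median of 1.70, and TYMS, which makes thymidylate, averaged 249 ± 10.9 TPM in LF3 and 41.2 ± 1.40 TPM in CON. Several of these S-phase genes, such as PCNA and CDT1, also belong to the replication machinery.

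CDK2, the partner of the E cyclins, averaged 94.1 ± 3.16 TPM in LF3 and 47.9 ± 1.94 TPM in CON (log2 fold change 0.96 ± 0.047, limma adjusted p = 6.74e-09). Of the 7 genes for CDK2, CDK3, the CDK-activating kinase and kinase helpers, 5 were called higher and 1 lower, with CDK7 not called (log2 fold change 0.11 ± 0.051, limma adjusted p = 0.0734). The median of the 7 was 0.95, and of all genes tested 53.2% were called higher and 32.3% lower. After median-ratio rescaling 5 of the 7 were called higher and 2 lower, CDK7 then standing at -0.17 (adjusted p = 0.00687). Of all 12195 genes, 5195 were called higher and 5205 lower after that rescaling. CDC25A, the phosphatase that removes the inhibitory phosphates from CDK2, averaged 13.9 ± 0.223 TPM in LF3 and 1.26 ± 0.138 TPM in CON. Of 12 genes for ubiquitin ligases that act on G1 regulators, 10 were called higher and 2 lower (8 and 2 after rescaling). Their median log2 fold change was 0.67, and 0.42 after rescaling, beside the same shares over all genes. SKP2, which targets p27 for degradation, averaged 42.7 ± 1.76 TPM in LF3 and 11.9 ± 0.769 TPM in CON. CUL1, RBX1 and UBAC1 were also among the 10 called higher. The 2 called lower were FBXW7, which targets cyclin E, and CDC34. FBXW7 averaged 5.63 ± 0.0900 TPM in LF3 and 7.99 ± 0.515 TPM in CON. CDC34 averaged 71.7 ± 4.30 TPM in LF3 and 94.5 ± 3.30 TPM in CON. Of the 5 genes of the MuvB core, which represses cell cycle genes together with pocket proteins, 4 were called higher and LIN37 lower. Their median was 0.965, again beside 53.2% of all genes called higher and 32.3% lower.

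Transcription factors known to act on D-cyclin or p27 genes were mostly lower, with 7 of 10 called lower and 3 higher (7 and 1 after rescaling) and a median of -0.68. The shares over all genes tested were 32.3% lower and 53.2% higher. FOXO3, which raises CDKN1B transcription, averaged 24.7 ± 1.23 TPM in LF3 and 71.7 ± 0.968 TPM in CON. JUN, whose product pairs with FOS in the AP-1 factor that drives CCND1 in response to growth signals, averaged 61.3 ± 2.68 TPM in LF3 and 226 ± 6.89 TPM in CON. FOS averaged 6.14 ± 1.91 TPM in LF3 and 57.3 ± 1.26 TPM in CON. The 3 called higher were MYC, CTNNB1 and TCF7L2, with log2 fold changes of 1.21, 0.24 and 0.32. After median-ratio rescaling these were 0.95, -0.030 and 0.083, and only MYC was still called. CCND1 was higher in the same libraries in which JUN and FOS were lower, and a link between them was not tested.

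**Figure D5:**
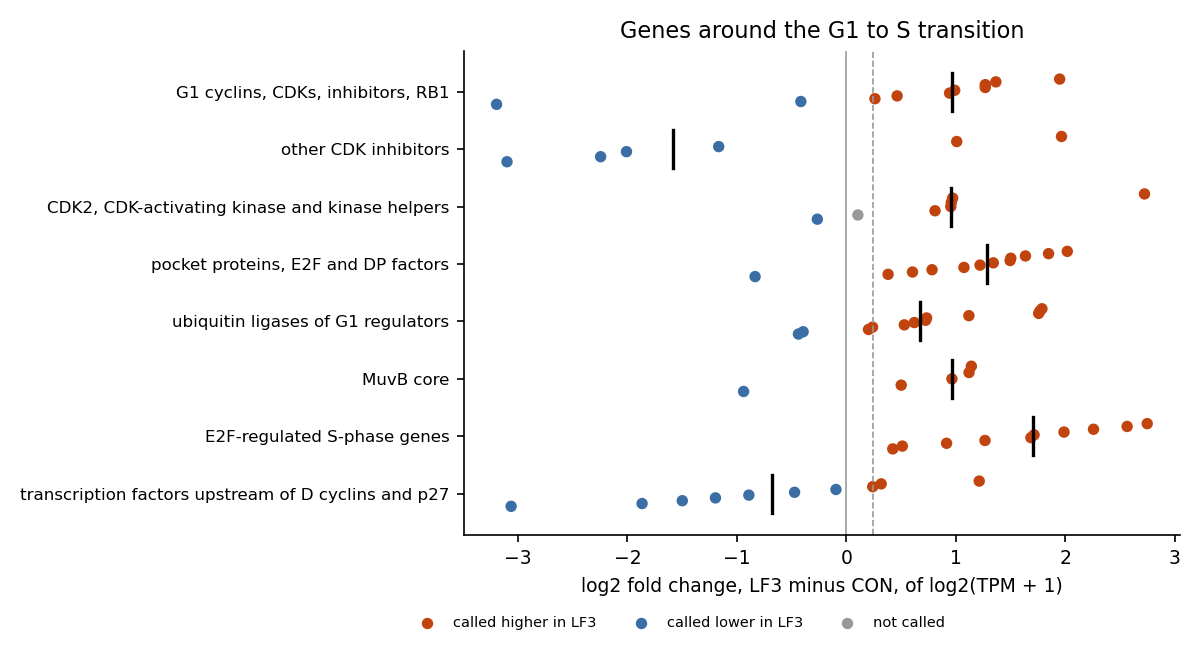
Log2 fold change of each tested gene, LF3 minus CON, in 8 lists around the G1 to S transition, orange where called higher, blue where called lower and grey where not called, with the list's median as a black bar. The dashed line is the median of all genes tested, 0.24; the other CDK inhibitors and the upstream transcription factors are the lists whose medians, -1.59 and -0.68, lie below it.

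Genes whose 6 centred log2 values lay nearest to those of a given gene were SAE1, GLA and MUC1 for CCND1 (root mean square distance 0.0224 to 0.0265 on the log2 scale), and DDX54, GOT2 and NSMCE4A for CDK4 (0.0291 to 0.0332). For CDKN1B they were ARHGEF10, SNAP29 and RETREG2 (0.0157 to 0.0187), and for RB1 they were FIGN, MINPP1 and DDX58 (0.0261 to 0.0307). With 6 libraries in 2 groups, such distances mostly reflect the size of the change between the groups.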

How the data were processed

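The authors deposited gene-level TPM, with equal totals across the libraries, so sequencing depth cannot be recovered. HISAT and Bowtie2 are named in the submitters' processing notes, without versions or roles, as is GRCm38.p6, a mouse assembly, while the table's identifiers are human (17222, or 99.7%, were found in the RefSeq table of GRCh38.p14, used for names, overlaps and upstream sequences only). How reads were counted between near-identical copies and overlapping genes is not stated in the labels; CCND2, CCND3 and CDK4 have named pseudogenes.

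Values were transformed to log2(TPM + 1), and the 12195 of 17280 genes whose mean reached 1 TPM were tested with limma 3.58.1 in R 4.3.3, with a mean-variance trend, two-sided, Benjamini-Hochberg adjusted over all genes tested at a threshold of 0.05. Within-library ratios were compared with an exact permutation test (scipy 1.17.1). Members, lists and the rule for named genes (all 10 members, some fixed regulators, and the top called genes of each list by adjusted p, at most 4, not all of them printed) were chosen with earlier results of these data known. FBXW7 and CDC34 were named outside that rule, after their values were seen. The fit was tested on simulated data. Alternatives were other pseudocounts, filters, scalings and variance models, a block for the replicate number, and fits without each library in turn. Between libraries of a group 0.32 to 0.541% of tested genes had identical values, so none was merged. The plotting library was matplotlib 3.10.9.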

Additional observations from a re-analysis of the deposited data

How the results depend on the processing

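All 10 members were called under each of the 16 alternatives but 1, and 158 of 160 recomputed member values kept direction and call. The exceptions were both CDKN1B, at -0.0048 after median-ratio rescaling, which lost the call, and -0.10 under quantile normalization; the cause was not tested, though both bring the median of all genes close to 0. Genes called over the table ranged from 10109 to 10376 when a library was left out. Titles number both groups 1 to 3. Deviations from the group means of same-numbered libraries correlated at 0.0476, 0.106 and 0.16, and 5 of 6 libraries correlated best with their own number. The main fit did not pair libraries by number, and whether the numbers mark pairs or a batch was not tested. With the replicate number as a block 10522 genes and all 10 members were called. The log2 difference of the CCND2 to CCND1 ratio, -5.05 as reported, was -4.72 with 0.5 TPM added to each gene, as that pulls low values together. That of CCND3 to CCND1 ran from -0.0027 to 0.048 when a library was left out, below 0 without LF3 replicate 1. Over the 64 other genes tested in the lists of related and neighbouring genes, 995 of 1020 values kept direction and call. After median-ratio rescaling the sign turned for LPAR6 (-0.033), CKS1B (-0.033), FBXO31 (-0.045), CTNNB1 (-0.030) and CDK7 (-0.17), and under quantile normalization for FBXO31 (-0.065), CTNNB1 (-0.067) and CDK7 (-0.22), of which CDK7 was called lower in both. CDK7 passed the threshold with the block and without LF3 replicate 3 (0.11 and 0.14). E2F7, CDT1 and TCF7L2 lost the call under both scalings, CKS1B and LEF1 under quantile normalization, STAT3 without a trend and when any library but CON replicate 1 was left out, and CDK3 without LF3 replicate 2. Without read depth, the counting error of low genes such as CCND2 in LF3 cannot be given.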
